A study of Mus musculus with 30 samples.

Results

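The odorant receptor (OR) genes of proximal chromosome 2, Olfr355, Olfr360, Olfr361, Olfr362 and Olfr368, 5 in all, were followed across 5 groups of mice. They were chosen by name, as genes near Olfr362 on the proximal side of Olfr992, from 564 OR genes with counts in the NanoString data. Nearness alone does not give the 5, since Olfr356, Olfr357 and Olfr358 lie nearer to Olfr362 than Olfr355 and Olfr368. Which values, if any, chose among them is not stated. Olfr362 had been singled out for its lower counts in ΔHxΔP mice, so the values of that comparison are given as a description with no test. The genes belong to a cluster of 20 measured OR genes that lie proximal to Olfr992 on chromosome 2, of which 19 had counts in all 30 mice and Olfr340 had counts on 1 cartridge. The other 15 genes of the cluster are given beside the 5 as their neighbours, and the 111 measured OR genes of the chromosome from Olfr992 on as a second reference.

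The counts came from RNA of whole olfactory mucosa of mice 21 days old, with 1 mouse per lane and 6 mice per group. Cartridge MK38 held wild-type 129SvEvTac mice (129S6/SvEvTac background) and homozygous ΔOlfr7Δ mice on an inbred 129SvEv background. ΔOlfr7Δ is an engineered deletion of a large OR gene cluster on another chromosome. Cartridge MK29 held ΔHxΔP mice, double homozygous for the deletion of the H element and for the ΔP (Berry) deletion of the P element, and wild-type mice of that strain's own companion colony. Cartridge MK37 held wild-type mice of the companion colony of the ΔH strain. The mice of MK29 and MK37 were of mixed C57BL/6J x 129SvEv background. Each deletion was in the germline, so every cell of a mutant carried it. On MK38 and on MK29 wild types took the first 6 lanes and mutants the last 6, so lane and genotype cannot be told apart, and neither can background and cartridge.

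OR genes encode G protein-coupled receptors that detect odorants in olfactory sensory neurons. A mature neuron is known to express a single OR gene from a single allele, so the RNA level of an OR gene in whole mucosa depends both on how many neurons choose it and on how much RNA each makes. Fewer neurons and less RNA per neuron cannot be told apart in these samples. The H element and the P element are enhancers that act on OR genes close to them, H on chromosome 14 and P on chromosome 7. The cluster on chromosome 2 is close to neither. No ligand is stated here for any of the receptors. Their MOR names place receptors of like sequence in families. Of the 20 genes, 9 were of the MOR136 family, 3 of MOR127, 3 of MOR159 and 2 of MOR138, with 1 each of MOR134, MOR158 and MOR178. Olfr362 is the MOR158 receptor, Olfr360 and Olfr361 are MOR159 receptors together with Olfr358, Olfr355 is a MOR138 receptor with Olfr357, and Olfr368 is the MOR178 receptor. In RefSeq (GRCm38.p6) 26 coding OR genes run from Olfr340 to Olfr368, of which 20 were measured. Their order was the same in the OR table used to define the cluster. Olfr360, Olfr361 and Olfr362 are next to each other in that order, with no OR gene between them. Olfr355 lies before Olfr360 with 3 measured genes between them, and 3 coding OR genes that were not analysed here lie between Olfr362 and Olfr368. The build of the positions that define the cluster is not stated, so no coordinates are printed.

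Each gene was counted through a pair of probes, a capture probe and a reporter probe, that must both bind 1 RNA molecule. The pairs of the 5 genes are shown because family members alike in sequence could share a probe. They are printed 5′ to 3′ as deposited, which is the strand complementary to the mRNA, and capitals mark the longest run of bases that also occurs in a probe of another OR gene.
Olfr355 capture: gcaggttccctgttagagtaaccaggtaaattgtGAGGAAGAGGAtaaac
Olfr355 reporter: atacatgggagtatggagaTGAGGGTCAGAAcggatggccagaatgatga
Olfr360 capture: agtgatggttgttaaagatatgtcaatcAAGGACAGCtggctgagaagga
Olfr360 reporter: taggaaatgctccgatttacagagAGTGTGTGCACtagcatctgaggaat
Olfr361 capture: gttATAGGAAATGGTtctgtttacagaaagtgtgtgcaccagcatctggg
Olfr361 reporter: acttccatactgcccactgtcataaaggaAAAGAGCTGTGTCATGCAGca
Olfr362 capture: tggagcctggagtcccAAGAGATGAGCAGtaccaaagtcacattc
Olfr362 reporter: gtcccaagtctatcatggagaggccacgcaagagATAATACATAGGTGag
Olfr368 capture: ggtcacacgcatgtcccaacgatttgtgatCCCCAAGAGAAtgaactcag
Olfr368 reporter: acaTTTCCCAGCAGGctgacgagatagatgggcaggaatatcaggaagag
The shared runs were short. Over the 40 probes of the cluster the longest shared run was 9 to 19 bases, with a median of 12, in probes of 40 to 50 bases. The Olfr361 reporter had the run of 19 bases, in common with the reporter of Olfr1180. The runs of Olfr362 were 13 bases, with a probe of Olfr1256, and 14 bases, with a probe of Olfr1048. The Olfr360 reporter and the Olfr361 capture probe covered the same stretch of these MOR159 receptors and matched at 84.8% of the aligned bases without gaps. The other probe of each of these pairs was less like any probe of another OR gene. In the alignment with the most matching bases, the Olfr360 capture probe matched the Olfr1389 capture probe at 60%. The Olfr361 reporter matched the Olfr1215 capture probe at 56.2%. Any cross-binding between family members was not tested.

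All values below are scaled counts, in which the raw count of a gene was scaled to the positive controls of its lane and then to 5 reference genes of olfactory sensory neurons. Raw counts summed over OR genes were 618163 to 1013430 per lane (median 814694), and the background, the mean of the negative controls plus 2 SD, was 32.4 to 56.2 scaled counts. The cluster's counts lay well above it, with group means from 186 for Olfr340 to 3204 for Olfr360. The 5 neuronal genes, Omp, Cnga2, Adcy3, Gnal and Ano2, were counted in every lane, Omp at 80769 to 135506 raw counts, and they set the scale, so a change in the share of mature neurons was not tested. The genotypes showed in the targeted genes. The 37 measured genes of the deleted Olfr7 cluster averaged 168 to 2774 without the deletion (wild-type 129) and 8.63 to 103 with it. Olfr1507, next to H, had 4995 to 11467 scaled counts in the wild-type mice of mixed background and 31.0 to 52.8 in ΔHxΔP mice, and Olfr2, next to P, had 3491 to 4244 and 40.4 to 65.9.

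Olfr362, the receptor on which the choice of genes centred, was lower in ΔHxΔP mice than in the other 4 groups, whose medians were 1011 to 1294 scaled counts. Its values in wild-type 129 mice ran from 1092 to 1189 with a median of 1140, and its mean was 1143 ± 34.6 (SD, n = 6). In ΔOlfr7Δ mice it ran from 1135 to 1431 with a median of 1294. The MK29 wild types lay between 1195 and 1478 (median 1293) and the MK37 wild types between 893 and 1134 (median 1011). In ΔHxΔP mice the 6 values were 695, 679, 526, 607, 623 and 479, with a median of 615. Every ΔHxΔP mouse was below every other mouse of the series for this gene, and the 2 wild-type colonies of mixed background did not overlap each other either. In the order of the medians, ΔHxΔP was apart from its neighbour MK37, MK37 overlapped with wild-type 129, wild-type 129 was apart from MK29, and MK29 overlapped with ΔOlfr7Δ.

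Olfr361, its nearest neighbour, was the steadiest of the 5 genes across groups. Its medians were 728 in wild-type 129 mice, 711 in ΔOlfr7Δ mice, 740 in MK29 wild types, 705 in MK37 wild types and 590 in ΔHxΔP mice. The ΔHxΔP values of 470 to 644 lay below all MK29 values (651 to 777) and overlapped with the MK37 values (631 to 817). The highest group median of Olfr361 was 1.25 times the lowest.

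Olfr360, the next gene along, had the highest counts of the cluster. The values ran from 2469 to 2949 in wild-type 129 mice (median 2760), from 3005 to 3439 in ΔOlfr7Δ mice (median 3163), from 2364 to 3010 in MK29 wild types (median 2583) and from 2265 to 3078 in MK37 wild types (median 2752). In ΔHxΔP mice they ran from 1741 to 2284 (median 2089). The 3 wild-type groups overlapped, ΔOlfr7Δ mice lay above all wild-type 129 mice, and ΔHxΔP mice lay below all MK29 wild types but overlapped with MK37. Counts of different genes are not levels per transcript, because probe pairs differ in how well they are counted.

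Olfr355 varied most between groups. The MK37 wild types had 253 to 376 scaled counts (median 318) and the MK29 wild types 366 to 704 (median 562). In ΔHxΔP mice the 6 values were 1019, 716, 754, 1114, 1093 and 991 (median 1005). Wild-type 129 mice had 967 to 1246 (median 1063) and ΔOlfr7Δ mice 1371 to 1734 (median 1483). Thus all ΔHxΔP mice were above all wild types of mixed background and overlapped with wild-type 129 mice, and all ΔOlfr7Δ mice were above the mice of every other group. The highest group median was 4.67 times the lowest, which ranked 20 of the 507 OR genes with every group median at 100 or more, where the median ratio was 1.56. Olfr362 had a ratio of 2.10 and ranked 91. The median ratio of the 19 cluster genes was 1.76, with Olfr344, a MOR136 receptor, at 2.72 (rank 47).

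Olfr368, the last gene of the cluster, separated the mice of MK38 (129 background) from those of MK29 and MK37 (mixed background). Background and cartridge cannot be told apart in this split. It had 892 to 1074 scaled counts in MK29 wild types (median 998), 1033 to 1143 in MK37 wild types (median 1078) and 990 to 1175 in ΔHxΔP mice (median 1094), and these 3 groups overlapped. It had 1362 to 1636 in wild-type 129 mice (median 1523) and 1598 to 1968 in ΔOlfr7Δ mice (median 1758), and every mouse of these 2 groups was above every mouse of mixed background.

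Among the neighbours, Olfr356, beside Olfr355, followed a like order at lower counts. Its median was 274 in MK37 wild types, 349 in MK29 wild types, 429 in ΔHxΔP mice, 439 in wild-type 129 mice and, highest, 585 in the ΔOlfr7Δ group, with ΔOlfr7Δ mice above and MK37 wild types below all wild-type 129 mice. Olfr357, the other MOR138 receptor, ran the other way. Its medians were 677 in wild-type 129 mice, 728 in ΔOlfr7Δ mice, 878 in MK29 wild types, 1056 in ΔHxΔP mice and 1213 in MK37 wild types. The ΔHxΔP mice spread from 736 to 1329 for this gene, across the ranges of both wild-type colonies of mixed background.

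Of the MOR136 genes at the other end of the cluster, Olfr344 had 1288 to 1573 scaled counts in wild-type 129 mice and 850 to 1325 in ΔOlfr7Δ mice, against 462 to 944 in MK29 wild types, 566 to 813 in MK37 wild types and 422 to 595 in ΔHxΔP mice. The ranges of mixed and ΔOlfr7Δ mice met only through MK29 wild-type replicate 3 (944) and ΔOlfr7Δ replicate 3 (850). The other ΔOlfr7Δ mice had 1132 to 1325. No mouse of mixed background reached the range of wild-type 129 mice. Olfr342 had nearly level medians, from 1867 in MK29 wild types to 2041 in MK37 wild types, a ratio of 1.09 that was the lowest of the cluster. Olfr351, a MOR127 gene, had medians of 464 and 496 in MK37 and MK29 wild types, 642 in ΔHxΔP mice, 831 in wild-type 129 mice and, at the top, 1066 in the ΔOlfr7Δ group.

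**Figure D1:**
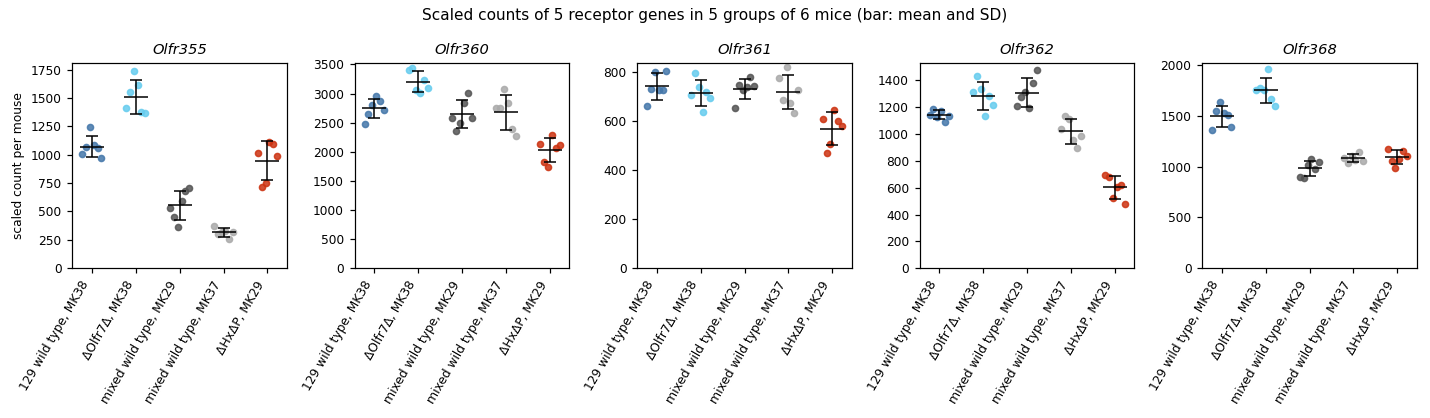
Scaled counts (vertical axes, linear from 0) of the 5 genes in the 5 groups, with 1 point per mouse and a bar and whiskers for the mean and SD of 6 mice. The ΔHxΔP mice have the lowest Olfr362 counts (479 to 695), and the Olfr355 counts run from 253 in an MK37 wild type to 1734 in a ΔOlfr7Δ mouse.

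The first comparison tested was ΔOlfr7Δ against wild-type 129 mice, on 1 cartridge, and asked whether OR genes outside the deletion change when a large cluster on another chromosome is lost. Of the 20 cluster genes 9 were higher in ΔOlfr7Δ mice, 1 was lower and 10 did not pass (limma, adjusted p under 0.05 over all 555 OR genes tested). Over all OR genes 35.1% were called, and 30.5% without the deleted genes, with 24.9% higher and 5.6% lower. The split depended on the scaling. Of all 555 OR genes, the deleted ones included, 129 were higher and 66 lower, against 100 and 103 when lanes were set to a common median ratio of their OR genes, and 283 higher and 41 lower (of 553) on the positive controls alone. The median log2 difference (M value) of the cluster was 0.18 and that of all OR genes outside the deletion 0.08. On the rest of chromosome 2, from Olfr992 on, 37 of 109 genes were higher and 3 lower, with a median of 0.13. Olfr992 itself was 0.27 higher (adjusted p = 0.00699).

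Olfr355 had the largest M value of the cluster, 0.49 ± 0.07 (SE), with means of 1510 and 1072 scaled counts (adjusted p = 4.16e-06), and the groups did not overlap. Olfr356, its neighbour and the MOR134 receptor, followed with 0.45 ± 0.08 (adjusted p = 3.47e-05), again with groups apart. Olfr360 rose by 0.22 ± 0.06 (adjusted p = 0.00505) and Olfr368 by 0.23 ± 0.07 (adjusted p = 0.0078). Olfr362 was 0.16 ± 0.07 higher on the log2 scale and narrowly missed the threshold (adjusted p = 0.0505). Olfr362 passed with the background subtracted (adjusted p = 0.0298), without moderated variance (0.0319) and on the positive controls alone (0.00573), and had an adjusted p of 0.184 by the common median ratio. The wild types were 4 females and 2 males and the ΔOlfr7Δ mice 2 females and 4 males, and with sex as a covariate the M value was 0.19 (adjusted p = 0.0335). The adjusted p of Olfr362 was 0.0496 without wild-type 129 replicate 2, and 0.0121 and 0.0447 without ΔOlfr7Δ replicates 4 and 6. Olfr361 had an M value of -0.05 ± 0.07 (adjusted p = 0.62), with overlapping groups.

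By family, 3 of the 9 MOR136 genes were higher, Olfr352 by 0.31, Olfr3 by 0.27 and Olfr350 by 0.24, while Olfr344 was lower by 0.30 ± 0.09 (adjusted p = 0.00699). The groups of Olfr344 overlapped, with means of 1173 and 1433. Of the 3 MOR127 genes only Olfr351 passed (0.39), and of the 3 MOR159 genes Olfr358 (0.30) and Olfr360. Olfr350 lost its call without any 1 of 5 mice, wild-type 129 replicate 1, 5 or 6 or ΔOlfr7Δ replicate 1 or 3 (adjusted p = 0.0551 to 0.0673). The 4 genes Olfr3, Olfr355, Olfr356 and Olfr360 had every ΔOlfr7Δ mouse above every wild type, a pattern that 11.8% of OR genes outside the deletion showed. The raw counts summed over OR genes were 833993 to 1013430 in ΔOlfr7Δ mice and 618163 to 855414 in wild types. When lanes were scaled on the positive controls alone the median of all OR genes moved up by 0.18, and 16 cluster genes were higher and 0 lower. The differences were small, and tTREAT, the test of the study against a FC of 1.3, called 0 cluster genes at an unadjusted p of 0.01 and 0 at 0.05, the lowest p being 0.0507 for Olfr356.

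**Figure D2:**
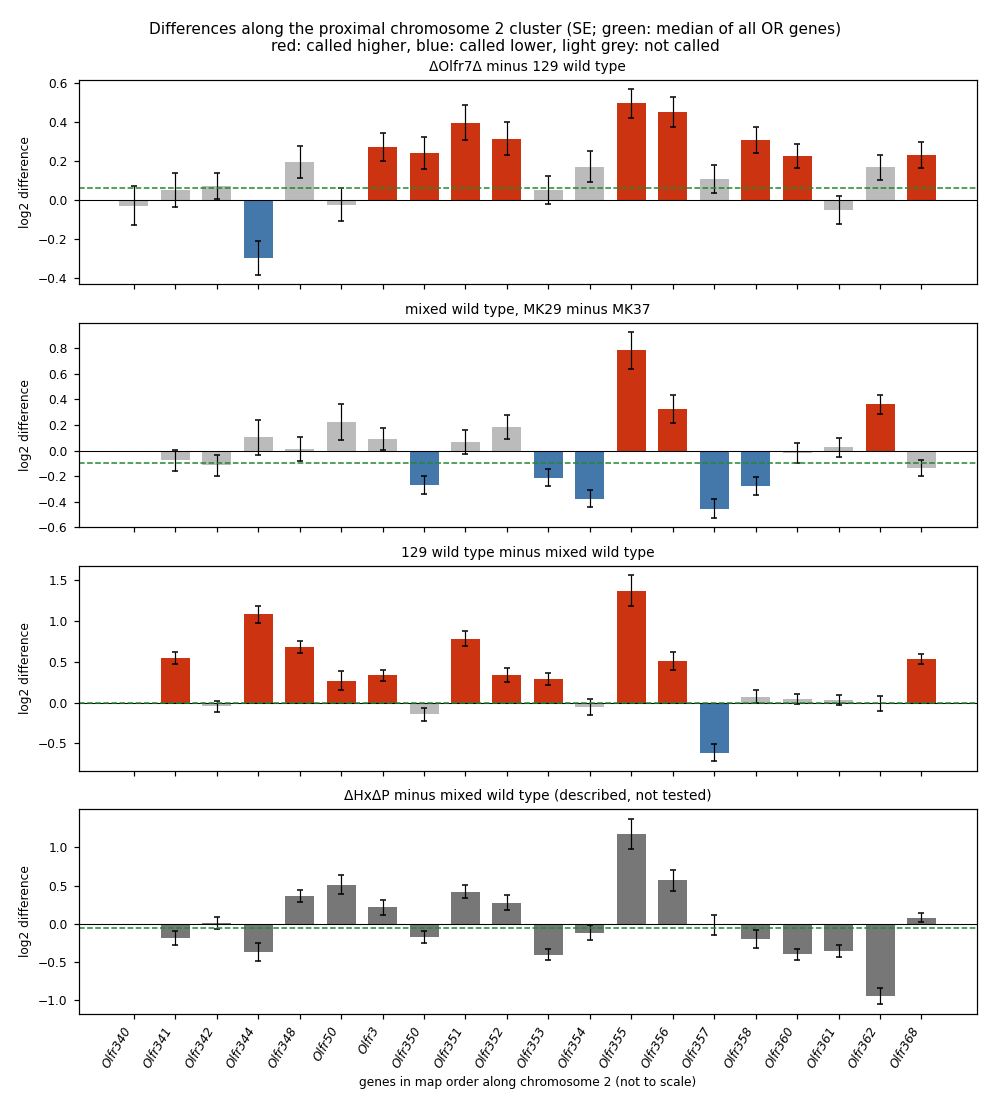
Log2 differences (vertical axes, with SE) of the cluster genes in map order in 4 comparisons, with the median of all OR genes as a dashed line; red and blue mark genes called higher and lower by limma, light grey those not called, and the fourth panel is a description in dark grey. Olfr355 has the tallest bar in every panel, and Olfr362 the lowest in the last.

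The second comparison set the wild types of MK29 against those of MK37, both of mixed background. It gives the difference between companion colonies, which cannot be told apart from the cartridge. Of 19 cluster genes 3 were higher in MK29 and 5 lower. Over all 556 OR genes tested 40.1% were called, 10.8% higher and 29.3% lower. The median M value of the cluster was 0.01 and that of all OR genes -0.10. When the lanes were instead set to a common median ratio of their OR genes, 5 cluster genes were higher and 4 lower, and over all OR genes 112 were higher and 112 lower in place of 60 and 163. On the positive controls alone those counts were 32 and 216.

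The genes higher in MK29 were Olfr355, by 0.78 ± 0.14 (SE; adjusted p = 0.000391), Olfr362, by 0.36 ± 0.07 (adjusted p = 0.00115), and Olfr356, by 0.32 ± 0.11 (adjusted p = 0.0267). In linear terms the MK29 mean of Olfr355 was 1.75 times that of MK37 and that of Olfr362 1.28 times. Of the 3 only Olfr362 had every MK29 mouse above every MK37 mouse, as 5.58% of OR genes did. The Olfr356 call was lost without any 1 of 4 mice, MK29 replicate 4, 5 or 6 or MK37 replicate 6, where the adjusted p was 0.0589, 0.0574, 0.0502 and 0.0647. The genes lower in MK29 were Olfr357 (-0.45), Olfr354 (-0.38), Olfr358 (-0.27), Olfr350 (-0.27) and Olfr353 (-0.21). Olfr357 is of the same MOR138 family as Olfr355, and the pair had M values of opposite sign. Olfr360 (-0.02 ± 0.08, adjusted p = 0.873), Olfr361 (0.03 ± 0.07, adjusted p = 0.775) and Olfr368 (-0.14 ± 0.06, adjusted p = 0.0907) did not pass.

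The third comparison set wild-type 129 mice against all wild types of mixed background, and shares the latter with the second and the last. Of 19 cluster genes 11 were higher in 129 mice and 1 was lower. Over all 547 OR genes tested 70.7% were called, 33.5% higher and 37.3% lower. On the positive controls alone 130 were higher and 219 lower, in place of 183 and 204. The cluster's median M value was 0.29 and that of all OR genes -0.002. From Olfr992 on, 22 of 109 genes of the chromosome were higher and 53 lower, with a median of -0.18.

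Olfr355 was again first, 1.37 ± 0.19 (SE; adjusted p = 1.07e-06) higher in 129 mice, whose mean was 1.94 times that of MK29 and 3.39 times that of MK37. Olfr368 was 0.53 ± 0.06 higher (adjusted p = 5.81e-08). For both genes all 129 mice lay above all mixed wild types, which held for 13.5% of OR genes. Of the 19 cluster genes 6 were apart in this way and 1 was apart and lower. Over all 547 OR genes these counts were 74 and 136. Olfr360 (0.05 ± 0.06, adjusted p = 0.515) and Olfr361 (0.03 ± 0.06, adjusted p = 0.651) did not pass. Olfr362 had an M value of -0.01 ± 0.09 (adjusted p = 0.92) against the pooled wild types. Its value depended on which of them was used. It was -0.19 against MK29 alone (adjusted p = 0.00894) and 0.17 against MK37 alone (adjusted p = 0.0212), since the mean of the 129 mice lay between those of the colonies. Olfr362 was picked from a comparison with these same mixed wild types. Its p values here are therefore not independent of that choice.

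Of the 8 MOR136 genes tested 6 were higher in 129 mice, led by Olfr344 (1.08), Olfr348 (0.68) and Olfr341 (0.55), with Olfr50 (0.27, adjusted p = 0.0495) just inside the threshold. The call of Olfr50 was lost without any 1 of 13 mice, all 6 of the 129 group, MK29 replicates 2 and 3 and MK37 replicates 1 to 4 and 6 (adjusted p = 0.0505 to 0.129). The MOR127 genes Olfr351 (0.78) and Olfr353 (0.29) and the MOR134 gene Olfr356 (0.51) were higher too. Olfr357 was the gene lower in 129 mice (-0.61), with 589 to 727 scaled counts in 129 mice and 797 to 1319 in mixed wild types. None of the 3 MOR159 genes passed, with M values of 0.03 to 0.07.

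The last comparison, ΔHxΔP against wild types of mixed background, was the one from which Olfr362 was picked. In the same fit 34.2% of 556 OR genes were called, 10.3% higher and 23.9% lower, and nothing is read from that share for the cluster. These were 57 genes higher and 133 lower, against 114 and 109 by the common median ratio and 63 and 88 on the positive controls alone. As Olfr362 was picked from this comparison, its rank in it is a description only. Its M value of -0.95 ranked 22 from the lowest among all 556 OR genes. Outside chromosome 14 and the P cluster its M value was the lowest of 486, with Olfr1314 next at -0.93. Against the MK29 wild types of the same cartridge it was -1.13, a mean 2.17 times lower, and against MK37 -0.77, a mean 1.69 times lower. The ΔHxΔP mean was also 1.90 times below that of wild-type 129 mice on another cartridge. Olfr355 went the other way, at 1.18, the fourth highest of all OR genes, with 0.79 against MK29 alone and 1.57 against MK37 alone. Its ΔHxΔP mean was 1.71 times that of the MK29 wild types.

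The genes beside Olfr362 had smaller M values, -0.35 for Olfr361 and -0.39 for Olfr360, and that of Olfr358, the third MOR159 gene, was -0.20. Olfr368 on the other side of Olfr362 was at 0.08. Further off, Olfr356 was at 0.57, Olfr50 at 0.51, Olfr351 at 0.42, Olfr353 at -0.40 and Olfr344 at -0.37. The cluster's median was -0.01, with 9 genes above 0 and 10 below. Thus the 19 genes did not share a direction. Olfr362 and Olfr355 were the 2 cluster genes whose ΔHxΔP mice were apart from all wild types of mixed background, a pattern of 9.17% of OR genes in either direction. Of all 556 OR genes tested, 7 were apart and higher, as Olfr355 was, and 44 apart and lower, as Olfr362 was. The sexes were uneven, with 1 female and 5 males among ΔHxΔP mice and 7 females and 5 males among the wild types; with sex as a covariate the M values were -0.92 for Olfr362 and 1.15 for Olfr355.

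**Figure D3:**
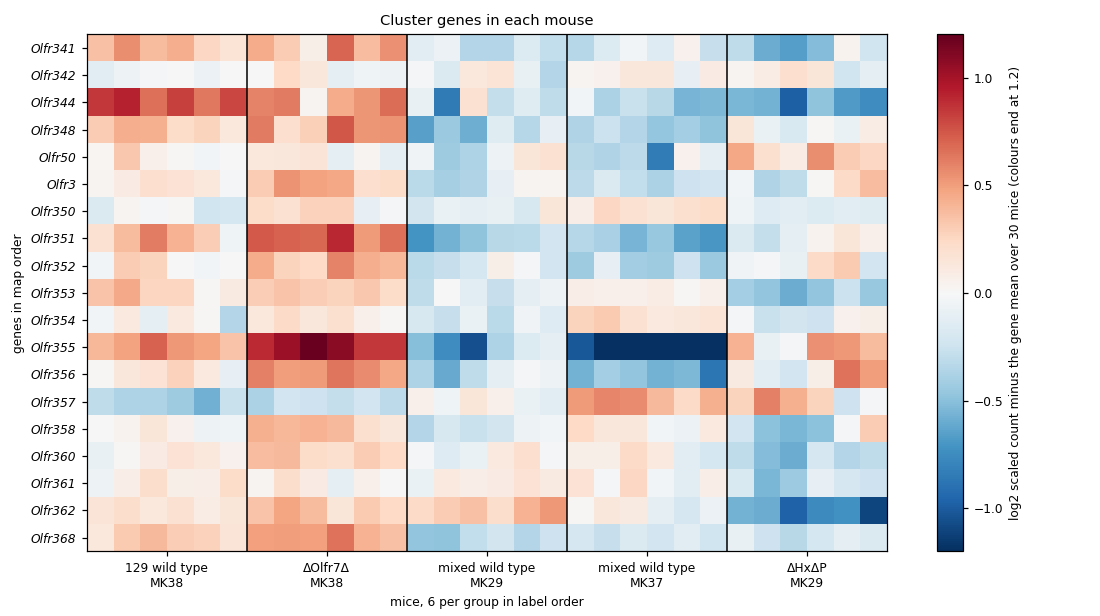
Log2 scaled count of the 19 cluster genes counted in every mouse, minus the gene's mean over 30 mice, with genes in map order (rows) and mice by group (columns); colours end at 1.2 in either direction. Olfr362 is blue in the 6 ΔHxΔP mice, and Olfr355 is blue in the 12 wild types of mixed background.

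Spread between mice of a group differed from gene to gene. The SD of log2 scaled counts had a median over the cluster of 0.12 in wild-type 129 mice, 0.12 in ΔOlfr7Δ mice, 0.13 in MK29 and in MK37 wild types and 0.17 in ΔHxΔP mice, beside 0.11, 0.13, 0.14, 0.12 and 0.18 over all OR genes. Olfr355 was the widest cluster gene in MK29 wild types, with an SD of 0.36 that ranked 14 of 555 OR genes, while its SD in wild-type 129 mice was 0.13. Olfr362 was the tightest in wild-type 129 mice, with 0.04, and had 0.12 in MK29 wild types, 0.13 in MK37 wild types and 0.21 in ΔHxΔP mice. Olfr356 was the widest in ΔHxΔP mice (0.35) and Olfr50 in MK37 wild types (0.30).

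The genes whose levels most resembled those of Olfr362 over the 30 mice were on other chromosomes. By Pearson's r of log2 scaled counts among 548 OR genes they were Olfr1510 (0.92), Olfr704 (0.91), Olfr1508 (0.91), Olfr714 (0.91) and Olfr730 (0.90), on chromosomes 14 and 7. The 6 ΔHxΔP mice are low for all of them, and that difference between groups enters each r. In the cluster Olfr360 (0.80, rank 21) and Olfr361 (0.77, rank 23) came first, and Olfr355 had 0.02. Taken as deviations from the group mean, the closest were Olfr1305 (0.68), Olfr1093 (0.66), Olfr1257 (0.62), Olfr1126 (0.62) and Olfr1232 (0.57), all on chromosome 2 outside the cluster. That part of the chromosome held 111 of the 564 measured OR genes. In the cluster Olfr353 came first by this measure (0.41, rank 28). Olfr361 (0.33) ranked 57, Olfr360 (0.27) ranked 95, Olfr355 (0.19) ranked 148 and Olfr368 (0.08) ranked 221. The points share lanes and scaling, so these values are descriptions.

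Within groups, pairs of cluster genes varied together to different degrees. The median r of deviations over 171 pairs of cluster genes was 0.26 in the 18 mice of mixed background and 0.20 in the 12 of 129 background. Over all pairs of OR genes on different chromosomes, in the cluster or not, it was 0.20 and 0.18. Olfr360 and Olfr361 had an r of 0.64 in mixed and 0.56 in 129 mice. Olfr362 had 0.26 and 0.59 with Olfr361, and 0.24 and 0.40 with Olfr360. Its highest values in 129 mice were with Olfr342 (0.80) and Olfr50 (0.75), both MOR136 genes, where the mixed mice gave -0.11 and 0.18. Olfr355 had 0.70 in mixed and 0.86 in 129 mice with Olfr3, a MOR136 receptor, and 0.21 and 0.06 with Olfr362. Some pairs ran in opposite directions, such as Olfr341 with Olfr342, next to each other in map order, at -0.64 and -0.62.

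**Figure D4:**
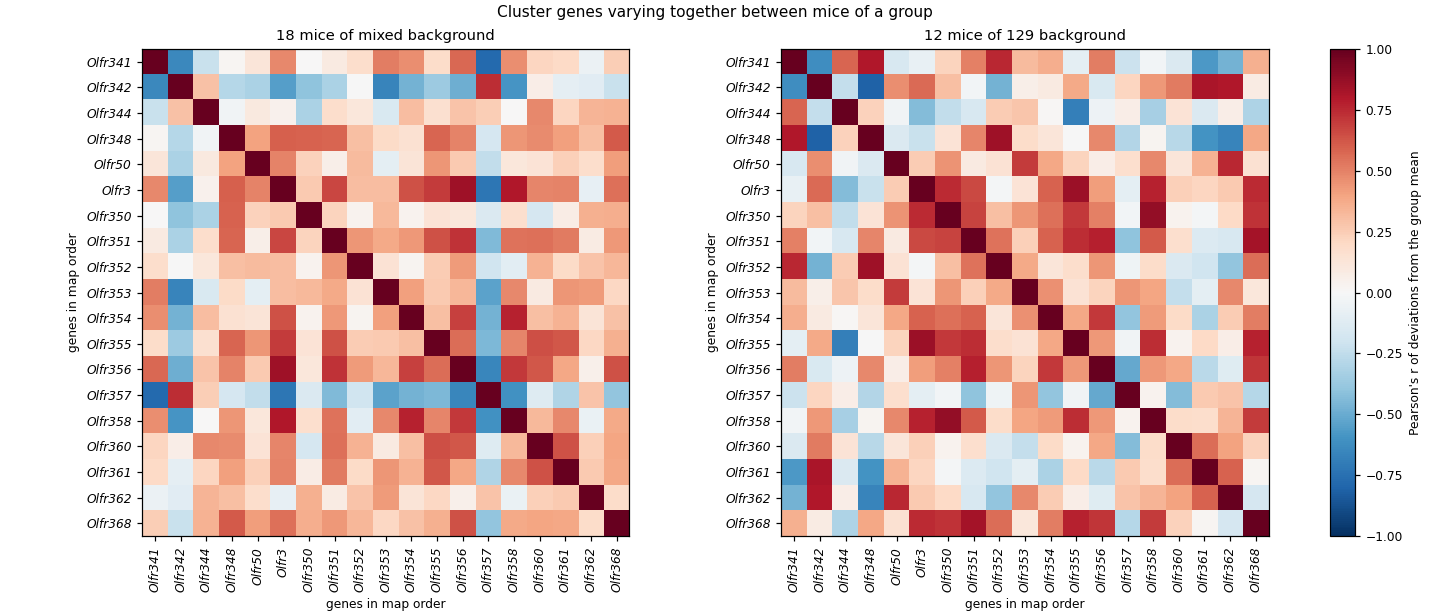
Pearson's r (colour, -1 to 1) between cluster genes in map order of deviations from the group mean, in 18 mice of mixed background (left) and 12 of 129 background (right). The row of Olfr357 is mostly blue on the left, and Olfr362 has pale cells with most genes there.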

How the data were processed

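NanoString counts of 30 mice, grouped by the strain labels, were used. The authors deposited raw counts, with no scaling or background subtraction, in 1 table with probe sequences. Because the table has empty cells its unit was recorded as other, so the count model with edgeR or DESeq2 was not run. Each lane was brought to the same geometric mean of its 6 positive controls and, after that, of its 5 reference genes; 0 columns belonged to other samples. limma 3.58.1 in R 4.3.3, with a mean-variance trend, was fitted to log2(scaled count + 1) for those OR genes that reached a median of 100 normalized counts in the wild types, and Benjamini-Hochberg adjusted p values under 0.05 were calls. SE are those of the fit. This fit was also run on data simulated from the means and residual SDs of the real counts, with 200 genes changed by known folds. The outcome of that run is not reported here. Printed levels were scaled over all 30 lanes together. No 2 lanes agreed within sampling noise (lowest chi-square per degree of freedom 4.26 over 435 pairs). Mice were numbered in accession order.

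The members, gene lists and tests were chosen with earlier results of these data known. Named were the 5 genes in every comparison, other cluster genes that were called or extreme, the genes most like Olfr362, and the targeted and reference genes. Cluster membership and MOR names came from the paper's OR table and gene order also from RefSeq (GRCm38.p6). The probes matched the RefSeq windows on the antisense strand in 31 cases and on the sense strand in 0. Protein identities and promoter motifs, which had been planned, were not analysed here, because no protein sequences were used and the RefSeq windows began at the coding start. Gap43 had no counts in the table used.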

Additional observations from a re-analysis of the deposited data

Results flagged for a closer look

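In each group of 6 mice the highest and the lowest scaled count of every cluster gene was compared with the others. In 5 of 97 groups the gap to the nearest other mouse was above Dixon's 95% critical value as a share of the range, and chance alone gives about 1 in 20. ΔOlfr7Δ replicate 3 had 850 scaled counts of Olfr344, where the other ΔOlfr7Δ mice had 1132 to 1325. Wild-type 129 replicate 2 had 508 of Olfr50, where the others had 398 to 424. Olfr350 stood out in MK29 wild-type replicate 6 (649, others 504 to 553) and in ΔHxΔP replicate 1 (563, others 523 to 535). MK37 wild-type replicate 6 had 221 of Olfr356, where the others had 271 to 303. None of the 5 genes named with Olfr362 was among them.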

How the results depend on the processing

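In ΔOlfr7Δ against wild-type 129 mice the count of higher cluster genes went from 9 to 16 and that of lower ones from 1 to 0 when lanes were scaled on the positive controls alone. It had 0 lower without moderated variance, and tTREAT at a FC of 1.3 called 0 higher and 0 lower. Leaving out 1 mouse gave 8 to 11 higher and 1 lower. Between MK29 and MK37 wild types the median of ratios gave 5 higher in place of 3, and leaving out 1 mouse gave 2 to 3 higher and 5 lower. For 129 against mixed wild types MK29 alone gave 2 lower and MK37 alone 3 lower in place of 1, and leaving out 1 mouse gave 10 to 11 higher and 1 lower. The causes were not tested. The M value of Olfr362 in ΔHxΔP mice was -0.99 to -0.88 when 1 mouse was left out.

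The values that changed sign were all near 0 and not called as reported. With the positive controls alone Olfr361 became 0.13 (ΔOlfr7Δ), -0.062 (MK29 against MK37) and -0.031 (129 against mixed), and Olfr360 -0.017 in the last. With the median of ratios Olfr360 became 0.074 (MK29 against MK37) and Olfr362 0.014 (129 against mixed). Against MK37 alone Olfr362 became 0.17. When 1 mouse was left out, Olfr360 ran from -0.063 to 0.025 and Olfr361 from -0.0087 to 0.066 between MK29 and MK37, and Olfr362 from -0.044 to 0.022 between 129 and mixed wild types. In the 3 tested comparisons, under settings other than leaving out a mouse, 277 values of single genes kept their direction and their side of the threshold, 18 lost the call, 6 gained it and 7 changed sign. No paired analysis was made, because the labels give no pairing between mice of different groups. Background of 32.4 to 56.2 scaled counts limits low genes such as Olfr340 more than the 5 named genes.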
